A study of Mus musculus with 6 samples.

Results

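The genes described here are 8 genes of sterol metabolism that are known targets of the transcription factor SREBP2: Hmgcs1, Idi1, Fdps, Fdft1, Sqle, Lss, Cyp51 and Insig1. They were chosen by name, with earlier results of these data known, and all 8 are present among the 10989 genes of the deposited table. Of these genes, 7 encode enzymes of cholesterol synthesis and Insig1 encodes a regulator of the pathway. None of the 8 is an uptake receptor, so uptake is described from a separate list. The samples are MPI-II cells, a line of mouse embryonic stem cells. RNA was sequenced from 2 libraries of wild-type (WT) cells and from 4 lines in which both copies of Ddx5, an RNA helicase gene, are labelled as knocked out (KO). Each KO line was grown from a single clone after transfection with a Cas9 nickase and paired guide RNAs and selection with G418. A WT line taken through the same selection is not described in the labels. Cells of both genotypes were at passages 13 to 18. They shared plates with feeder cells and a medium with 15% serum, leukemia inhibitory factor, 1 µM of a MEK inhibitor and 3 µM of a GSK3 inhibitor. The labels do not say that the WT replicates are separate cultures, so p-values measure only the spread between these samples.

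Cells make cholesterol from acetyl-CoA through mevalonate, isoprenoid diphosphates, squalene and lanosterol. When sterols in the endoplasmic reticulum run low, the escort protein SCAP carries the SREBP2 precursor to the Golgi, where proteases release its active part, which then turns on synthesis and uptake genes. INSIG proteins hold SCAP back when sterols are plentiful, and Insig1 is itself an SREBP2 target, which closes a feedback loop.

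Promoters were looked at for the features that SREBP2 targets are known to share, a sterol regulatory element flanked by sites for NF-Y and Sp1. RefSeq sequences (GRCm38.p6) of the 250 bases before the start were found for 5 of the 8 genes: Hmgcs1, Idi1, Lss, Cyp51 and Insig1. The 3 shown belong to the genes whose highest KO library lay farthest from the other KO lines, relative to their range. They are written 5′ to 3′ on the gene's strand, and the stretch that GENCODE M21 places within the gene is left out. Capitals mark TCACNCCAC (a core of the sterol regulatory element), CCAAT (the NF-Y box) and GGGCGG (the Sp1 box), on either strand, so that CCAAT can read as ATTGG and GGGCGG as CCGCCC. These are Hmgcs1 at chr13:119690101-119690350, Lss at chr10:76531355-76531587 and Insig1 at chr5:28071162-28071362, all on the plus strand.
Hmgcs1: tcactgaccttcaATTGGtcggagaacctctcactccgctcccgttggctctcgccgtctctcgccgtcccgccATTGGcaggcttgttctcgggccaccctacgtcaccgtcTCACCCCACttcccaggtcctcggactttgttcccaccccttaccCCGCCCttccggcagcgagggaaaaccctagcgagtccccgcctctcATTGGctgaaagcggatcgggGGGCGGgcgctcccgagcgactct
Lss: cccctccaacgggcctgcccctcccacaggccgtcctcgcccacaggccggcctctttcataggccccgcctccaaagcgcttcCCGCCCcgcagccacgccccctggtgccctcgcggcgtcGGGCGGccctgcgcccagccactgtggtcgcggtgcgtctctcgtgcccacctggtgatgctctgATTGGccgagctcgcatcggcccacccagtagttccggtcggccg
Insig1: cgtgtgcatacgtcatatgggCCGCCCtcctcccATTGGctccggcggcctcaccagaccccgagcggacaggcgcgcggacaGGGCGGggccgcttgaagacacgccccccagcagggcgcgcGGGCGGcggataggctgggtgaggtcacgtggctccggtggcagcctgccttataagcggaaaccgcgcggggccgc

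In the full windows of 250 bases, CCAAT stood in 5 of the 5 genes and GGGCGG in 5 of the 5, while 33.8% and 32.7% of all 32851 promoter windows hold them. All matches of Idi1 and the CCAAT of Cyp51 lay in the stretch that GENCODE M21 places within the gene. TCACNCCAC stood in 1 of the 5, Hmgcs1, starting at position -137 from the start, and in 1.05% of all windows. No 2 of these motifs overlapped in the sequences shown. A match of letters is a description of the sequence and was not tested for binding.

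Values are normalized expression scores in the deposited units, and the depth of the libraries is unknown. The disrupted gene, Ddx5, stood at 36433 and 36436 units in WT and at 5854, 8450, 12793 and 5659 units in KO lines 1 to 4. Of all 10989 genes, 17.1% differed between KO and WT at an adjusted p below 0.05 (limma, Benjamini-Hochberg over all genes), 9.75% higher and 7.34% lower in KO. Log2 differences are KO minus WT of log2(scaled score + 1), where the scaled score is the deposited value divided by 14.7. WT replicate 2 stood apart from the other libraries in its genes at 0, with 131 against 13 to 19 in each of the other 5. Its Pearson's r across genes was 0.89 to 0.93 with each of them, highest with WT replicate 1. Between WT replicate 1 and the KO lines r was 0.92 to 0.93, and among the KO lines it was 0.97 to 0.99. All 12 pluripotency markers fixed for the check were measured, and 2 of them differed. Nanog was higher in KO (log2 0.89, adjusted p = 0.0154), with its highest level in KO line 4, and Klf4 was lower (log2 -0.94, adjusted p = 0.0116). Pou5f1, which encodes Oct4, lay between 13545 and 17548 units. Of 17 measured fibroblast markers, 15 were lower in KO. The summed level of 16 of them, leaving out Fn1 (29855 to 36452 units in every library), was 36750 and 18997 units in WT replicates 1 and 2, and 2516 to 4291 units in the KO lines. Fn1 itself was not lower in KO (log2 0.14, adjusted p = 0.283, limma). With Fn1 the sum was 73202 and 48852 units in WT replicates 1 and 2, and 38968 to 40743 units in the KO lines. Fibroblasts also make cholesterol. In bulk RNA fewer cells of a type and less RNA per cell cannot be told apart, and the part of the feeder cells in the results below was not tested.

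None of the 8 sterol genes passed the test between KO and WT. All 8 had a positive log2 difference, from 0.02 for Fdps to 0.40 for Hmgcs1, with a median of 0.33. Over all genes the median was 0.04 and 54.2% of differences were positive. At an unadjusted p below 0.05, 1 of the 8 (Sqle) passed, against 36.0% of all genes. The libraries of the 2 groups overlapped in 7 of the 8 genes. The 4 KO lines stood above both WT libraries in 1 of the 8, Sqle, as in 24.1% of all genes, and below both in 0 of the 8, as in 19.6% of all genes. The smallest p that an exact permutation test can reach with these group sizes is 0.0667.

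The 8 genes shared their highest library. KO line 4 was the highest of the 6 libraries in 8 of the 8 genes, as in 19.4% of all genes, and WT replicate 1 was below all 4 KO lines in 8 of the 8, as in 35.2% of all genes. WT replicate 1 was the lowest of all 6 libraries in 7 of the 8, as in 19.5% of all genes. WT replicate 2 lay inside the range of the KO lines in 7 of the 8, as in 24.7% of all genes. The median deviation of the 8 genes from their mean over the libraries was -0.41 (log2) in WT replicate 1, 0.01 in WT replicate 2, -0.14, 0.03 and -0.07 in KO lines 1 to 3, and 0.53 in KO line 4. Both WT libraries are labelled as wild-type for Ddx5, and their values differed by a median log2 of 0.41 over the 8 genes (replicate 2 higher in 7 of the 8). Over all genes replicate 2 was higher in 45.2%, with a median of -0.04. On chromosome 8, which holds none of the 8, the median gene was also 0.41 higher in replicate 2. The median gap of the 8 exceeds their median difference between the genotypes. Without WT replicate 2 the 8 differences between KO and WT were 0.23 to 0.79, and without WT replicate 1 they were -0.19 to 0.34. None was called in either fit (smallest adjusted p 0.0930 and 0.0985, limma). Among KO lines 1 to 3 the order varied, with line 3 the lowest for Hmgcs1, Sqle and Fdft1 and line 1 the lowest for the other 5 genes.

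**Figure D1:**
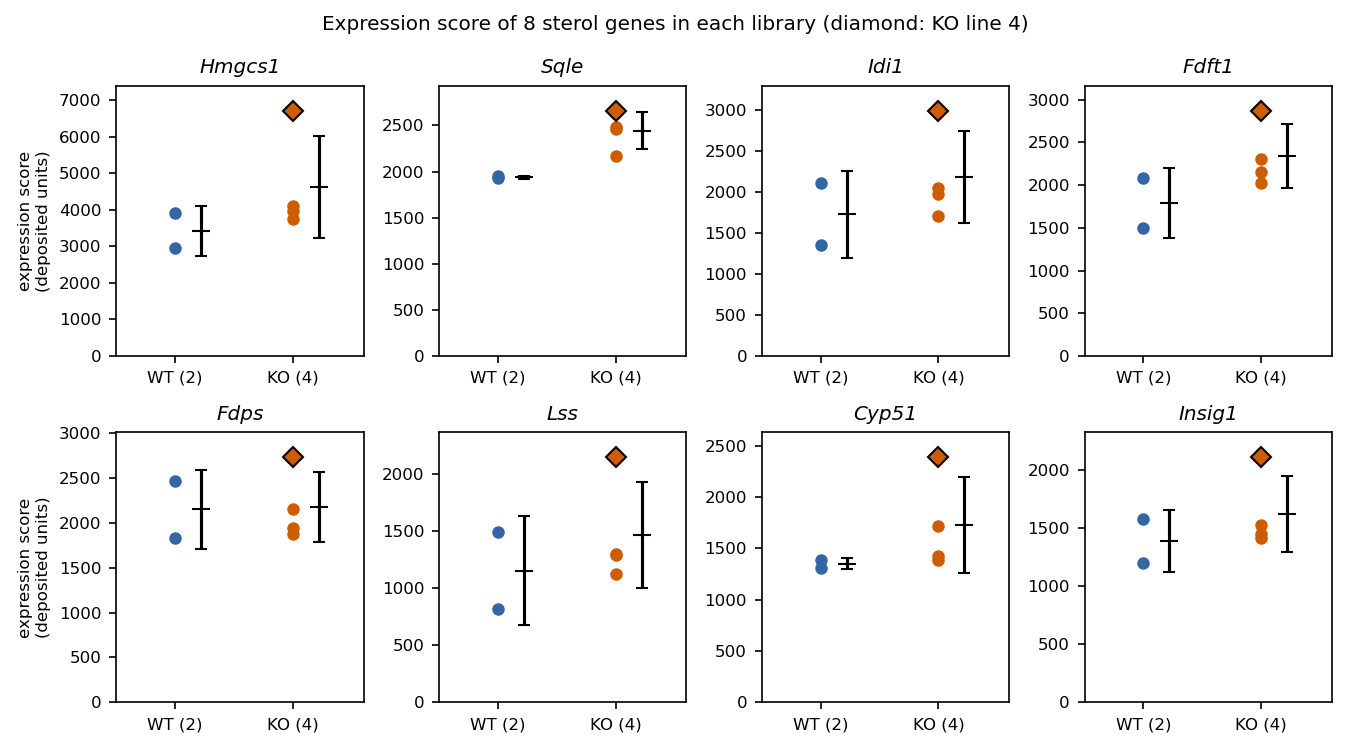
Expression score in deposited units (vertical axis, from 0) of each of the 8 sterol genes in the 2 WT libraries (blue) and the 4 KO lines (orange), with the group mean and SD as black bars. KO line 4, the diamond, is the highest of the 6 libraries in all 8 panels, and the groups are apart in the Sqle panel alone.

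The first enzymes of the pathway make and rearrange the isoprenoid building blocks. Hmgcs1, the cytosolic HMG-CoA synthase (ENSMUSG00000093930, chromosome 13, 119690379 to 119708260, mm10), stood at 2944 and 3912 units in WT replicates 1 and 2 and at 3954, 4112, 3736 and 6713 units in KO lines 1 to 4. WT replicate 2 lay above KO line 3, so the groups overlapped, and line 4 stood far above the other lines. The means were 3428 ± 684 (SD, n = 2) and 4629 ± 1398 (SD, n = 4) units, a log2 difference of 0.40 (SE 0.25, 95% interval -0.19 to 0.99, adjusted p = 0.287). Without KO line 4 it was 0.21 (adjusted p = 0.326).

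Idi1, which isomerizes isopentenyl diphosphate (ENSMUSG00000058258, chromosome 13, 8885501 to 8892451), stood at 1354 and 2106 units in WT and at 1708, 2044, 1979 and 2994 units in KO lines 1 to 4. KO lines 1 to 3 all lay below WT replicate 2. This gave a log2 difference of 0.33 (SE 0.25, interval -0.27 to 0.94, adjusted p = 0.385), and it was 0.02 without WT replicate 1.

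Fdps, the farnesyl diphosphate synthase (ENSMUSG00000059743, chromosome 3, 89093588 to 89101959), stood at 1834 and 2458 units in WT and at 1868, 2156, 1945 and 2729 units in KO. Its group means were the closest of the 8 genes, 2146 ± 441 (SD, n = 2) and 2175 ± 389 (SD, n = 4) units. The log2 difference was 0.02 (SE 0.19, interval -0.42 to 0.46, adjusted p = 0.955). It was negative without KO line 4 (-0.10) and without WT replicate 1 (-0.19), and -0.02 when each library was centred on its median.

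Farnesyl diphosphate is then committed to sterols. Fdft1, the squalene synthase that carries out this step (ENSMUSG00000021273, chromosome 14, 63145150 to 63179578), stood at 1503 and 2080 units in WT and at 2159, 2309, 2024 and 2874 units in KO. The groups overlapped through KO line 3 alone, which lay under WT replicate 2. Between the groups the log2 difference was 0.39 (SE 0.18, interval -0.04 to 0.82, adjusted p = 0.170).

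Sqle, the squalene epoxidase that is a rate-limiting oxygen-dependent step of the pathway (ENSMUSG00000022351, chromosome 15, 59315077 to 59331192), stood at 1948 and 1926 units in WT and at 2480, 2464, 2169 and 2662 units in KO. It was the member whose WT replicates were closest and whose groups did not overlap. The means were 1937 ± 15.6 (SD, n = 2) and 2444 ± 204 (SD, n = 4) units, a ratio of 1.26. The log2 difference of 0.33 (SE 0.10, interval 0.09 to 0.57) did not pass over all genes (adjusted p = 0.0678). Leaving out each library in turn gave 0.29 to 0.38 and no call (adjusted p 0.0801 to 0.168).

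The sterol ring is closed and trimmed next. Lss, lanosterol synthase (ENSMUSG00000033105, chromosome 10, 76531588 to 76557138), stood at 815 and 1488 units in WT and at 1126, 1300, 1288 and 2146 units in KO. It had the widest gap between the WT replicates of the 8 genes, 0.86 on the log2 scale, and lines 1 to 3 lay inside that gap. The log2 difference was 0.36 (SE 0.31, interval -0.38 to 1.10, adjusted p = 0.446), and it was -0.07 without WT replicate 1.

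Cyp51, the lanosterol demethylase (ENSMUSG00000001467, chromosome 5, 4081145 to 4104746), stood at 1312 and 1388 units in WT and at 1382, 1714, 1426 and 2388 units in KO. Its WT replicates were close, and KO line 1 lay 6 units under WT replicate 2. The groups differed by a log2 of 0.32 (SE 0.22, interval -0.20 to 0.84, adjusted p = 0.336), and 0.15 without KO line 4.

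Insig1, the sterol-regulated anchor of SCAP (ENSMUSG00000045294, chromosome 5, 28071363 to 28078662), stood at 1200 and 1578 units in WT and at 1416, 1522, 1443 and 2108 units in KO. Lines 1 to 3 were tight, with a mean of 1460 ± 55.1 (SD, n = 3) units, and all lay under WT replicate 2. The log2 difference was 0.22 (SE 0.19, interval -0.24 to 0.67, adjusted p = 0.460), and 0.08 without KO line 4.

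The step in KO line 4 differed in size among the members. Its ratio to the mean of lines 1 to 3 was 1.73 for Lss, 1.71 for Hmgcs1, 1.58 for Cyp51, 1.57 for Idi1, 1.44 for Insig1, 1.37 for Fdps, 1.33 for Fdft1 and 1.12 for Sqle. Line 4 is 1 library of 1 clone, so this has no replicate check. On the log2 scale the median over the 8 genes was 0.59, against -0.01 over all genes. In line 4 the median gene on chromosome 6 lay 0.45 (log2) above lines 1 to 3. None of the 8 lies there, and for their chromosomes (3, 5, 10, 13, 14 and 15) that median lay between -0.03 and -0.00037. Subtracting the chromosome medians left the 8 differences between KO and WT at 0.02 to 0.39, none called. The summed level of the 16 fibroblast markers in line 4 was 3179 units, against 4291, 2516 and 3408 units in lines 1 to 3. It was the highest KO line for 2 of the 16, Pdgfrb (216 units against 108 to 152) and Thy1 (156 against 80 to 154).

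The members differed in how closely each followed the others. Pearson's r over the 6 libraries between a gene and the mean log2 level of the other 7 was 0.99 for Insig1, 0.98 for Hmgcs1, 0.97 for Idi1, 0.95 for Lss and Fdft1, 0.90 for Cyp51, 0.84 for Fdps and 0.66 for Sqle. These are descriptions over 6 libraries that share 1 normalization. Per kilobase of annotated exon, the mean score over the 6 libraries was highest for Hmgcs1 (920 units per kb) and lowest for Lss (126). Idi1 (579), Fdps (514), Fdft1 (511), Insig1 (499), Sqle (410) and Cyp51 (363) came between, and each neighbouring pair of these 6 overlapped in its range over libraries. Hmgcs1 and Idi1 overlapped too, and Lss stood below Cyp51 in every library (75.6 to 199 against 297 to 541 units per kb). The exon length of each gene, Lss among them, includes all annotated transcripts, which lowers values on this scale to an extent not measured. Whether the score grows with transcript length is not known, so this order is a description.

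**Figure D2:**
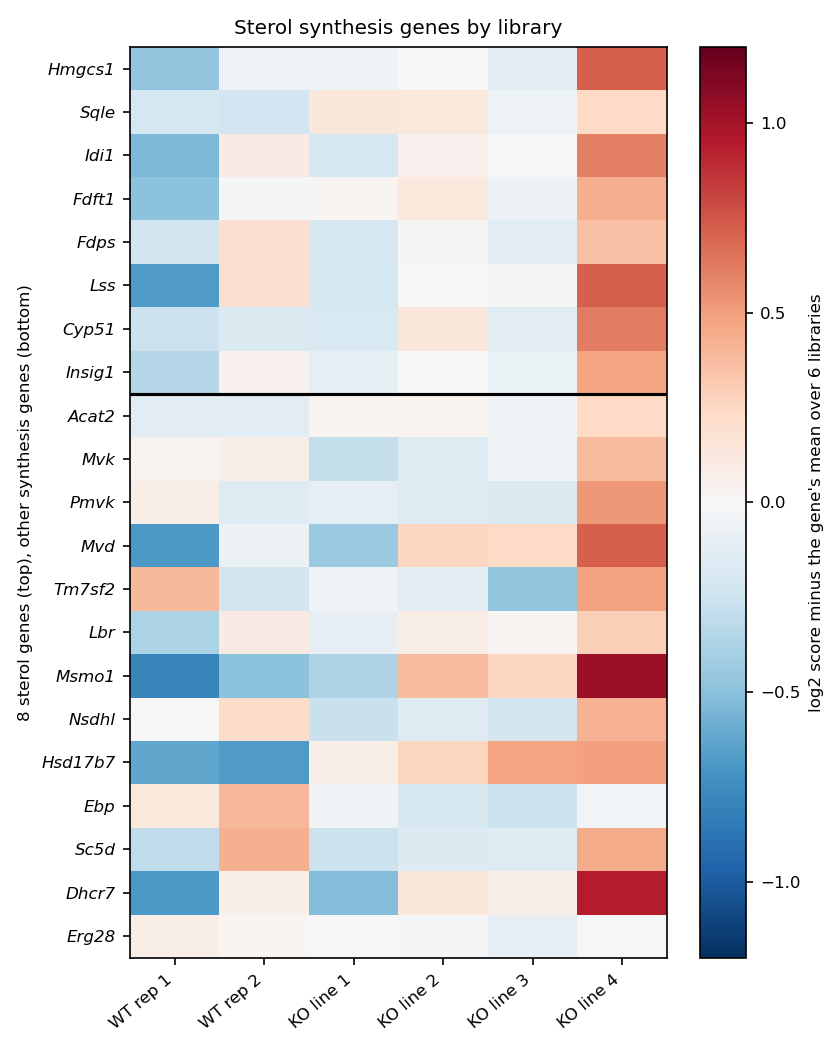
Log2 score minus the gene's own mean over the 6 libraries (colour scale) for the 8 sterol genes, above the black line, and 13 other genes of sterol synthesis, below it, with libraries in columns. The KO line 4 column is the reddest in all 8 member rows and was the highest library in 11 of the 13 others, and Msmo1 in WT replicate 1 is the darkest blue.

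Of the other synthesis genes, 13 were measured and are described here. Of them, 1 was higher in KO, none was lower and 12 did not pass, with a median log2 difference of 0.06. KO line 4 was the highest library in 11 of the 13, and its median difference from lines 1 to 3 was 0.61. The gene that passed was Hsd17b7, a ketosteroid reductase of the late pathway. It stood at 192 and 185 units in WT and at 313, 355, 412 and 418 units in KO, and the 4 KO lines all lay above WT. Its log2 difference was 0.93 (SE 0.16, adjusted p = 0.0128). The call was lost without KO line 2 or KO line 3 (adjusted p up to 0.0503).

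Msmo1, the methylsterol monooxygenase, stood at 1077 and 1322 units in WT and at 1438, 2420, 2227 and 3805 units in KO. The KO lines lay above WT, with line 1 just above it. The log2 difference was 0.96 (SE 0.34, adjusted p = 0.0923), and it passed without KO line 1 (1.19, adjusted p = 0.0374). Msmo1 lies on chromosome 8, whose genes had median deviations of -0.34 in WT replicate 1 and -0.32 in KO line 1 and of 0.07 to 0.22 in the other libraries. With chromosome medians subtracted its difference was 0.76 (adjusted p = 0.0612).

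Dhcr7, a reductase of the last steps of the pathway, stood at 710 and 1204 units in WT and at 799, 1260, 1203 and 2202 units in KO (log2 0.46, SE 0.39, adjusted p = 0.429). Line 4 was 2.03 times the mean of lines 1 to 3, above the ratio of each of the 8 sterol genes.

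**Figure D3:**
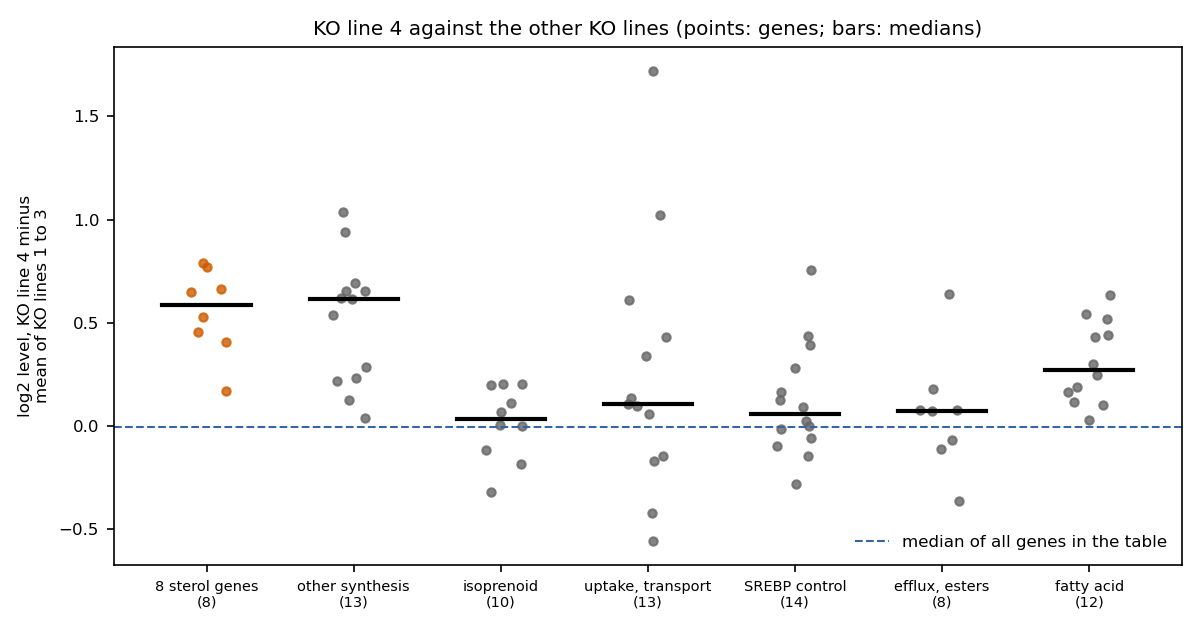
Log2 level in KO line 4 minus the mean of KO lines 1 to 3 (vertical axis) for each gene (points), by list, with the list's median as a black bar and the median of all genes as a dashed blue line. The 8 sterol genes and the other synthesis genes have medians of 0.59 and 0.61, and the isoprenoid branch has 0.04.

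Another list holds genes that draw isoprenoids away from sterols, such as prenyltransferases. In 1 of these 10 genes KO line 4 was the highest library, near the share of 19.4% over all genes. The median log2 difference between KO and WT was 0.04, as over all genes. Nus1, a subunit of the enzyme that makes dolichol, fell from 1376 and 1488 units in WT to 1099, 1117, 1117 and 1109 units in KO (log2 -0.36, SE 0.087, adjusted p = 0.0343). Its KO lines were nearly equal. Leaving out WT replicate 1 kept the call, and leaving out any of the other 5 libraries ended it (adjusted p up to 0.111).

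Among uptake and transport genes, 13 of the 14 considered here were measured, and 2 were higher, 1 was lower and 10 did not pass. Scarb1, the receptor for high-density lipoprotein, rose from 1216 and 912 units to 1660, 1600, 1564 and 2174 units (log2 0.71, SE 0.18, adjusted p = 0.0365). Stard4, a cytosolic sterol carrier, rose from 652 and 680 units to 989, 1134, 948 and 1565 units (log2 0.76, SE 0.20, adjusted p = 0.0455). Both were highest in KO line 4, and both passed without it (adjusted p = 0.0468 and 0.0320). Of the 6 leave-one-out fits, 4 ended the call of Scarb1 and 5 that of Stard4 (adjusted p at most 0.145 and 0.119).

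Npc2, which hands cholesterol out of the lysosome, fell from 5002 and 3460 units to 2678, 2920, 2809 and 2920 units (log2 -0.55, SE 0.15, adjusted p = 0.0438). The KO lines were close to each other and the WT replicates were not. Of the 6 leave-one-out fits, 5 ended this call (adjusted p at most 0.110), the one without WT replicate 2 being the exception. WT replicate 1, the higher of the WT libraries, also had the higher summed fibroblast markers. Its sum of the 12 pluripotency markers was higher too, at 178197 units against 108694 units in WT replicate 2. Whether either bears on Npc2 was not tested.

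Among 14 regulators of SREBP processing, all measured, 1 was higher, 1 was lower and 12 did not pass. Srebf2, which encodes SREBP2 and is also one of its targets, rose from 3288 and 3402 units in WT to 4094, 4236, 4290 and 5120 units in KO. The KO lines stood above WT, and line 4 was highest again. The log2 difference was 0.40 (SE 0.11, interval 0.14 to 0.66, adjusted p = 0.0473), a ratio of means of 1.33. It was called without KO line 4 (0.33, adjusted p = 0.0457) but not without any other single library (adjusted p at most 0.111), nor with chromosome medians subtracted (adjusted p = 0.0749), with median centring (0.0679) or without the variance trend (0.0790).

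Srebf1, the gene of the related factor that favours fatty acid synthesis, had a log2 difference of 0.15 (adjusted p = 0.567). Those of Scap, the escort, and Insig2, the second anchor, were 0.17 (adjusted p = 0.403) and 0.21 (adjusted p = 0.513). None of these 3 passed, and KO line 4 was the lowest KO line for Scap, at 800 units against 896 to 1078. Ufd1, a factor in the degradation of endoplasmic reticulum proteins, fell from 1046 and 1002 units to 793, 793, 775 and 735 units (log2 -0.40, SE 0.093, adjusted p = 0.0318). Its call was lost whichever KO line was left out (adjusted p up to 0.0986).

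Of 12 listed genes of sterol efflux and ester storage, 8 were measured, and KO line 4 was the highest library in 2 of them. Nceh1, a hydrolase of cholesterol esters, was the gene that passed, rising from 262 and 209 units to 340, 365, 368 and 406 units (log2 0.63, SE 0.14, adjusted p = 0.0292). It was called in 1 of the 6 leave-one-out fits, that without WT replicate 1 (adjusted p elsewhere at most 0.0917).

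The 12 fatty acid genes that SREBP1 is known to drive were mostly highest in KO line 4, like the 8 sterol genes. KO line 4 was the highest library in 10 of the 12, with a median of 0.27 above lines 1 to 3 on the log2 scale. Scd2, a fatty acid desaturase, rose from 8442 and 9664 units in WT to 10924, 11416, 11416 and 12186 units in KO (log2 0.35, SE 0.087, adjusted p = 0.0381). The other 11 did not pass, and Scd2 was called in 1 of the 6 leave-one-out fits, that without WT replicate 2 (adjusted p elsewhere at most 0.111). Over the 70 measured genes of the 6 lists beside the 8, 6 were higher, 3 were lower and 61 did not pass. Over all genes 9.75% were higher and 7.34% lower. Of the 9 calls among the 70 genes, median centring also ended those of Stard4 (adjusted p = 0.0514) and Scd2 (0.0741), and subtracting chromosome medians that of Scd2 (0.0557). Without the variance trend, Scarb1 (0.0531), Stard4 (0.0627), Npc2 (0.0674), Nus1 (0.0502) and Scd2 (0.0798) were not called either, and with the replicate number as a block none of the 9 was (adjusted p 0.124 to 0.234).

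**Figure D4:**
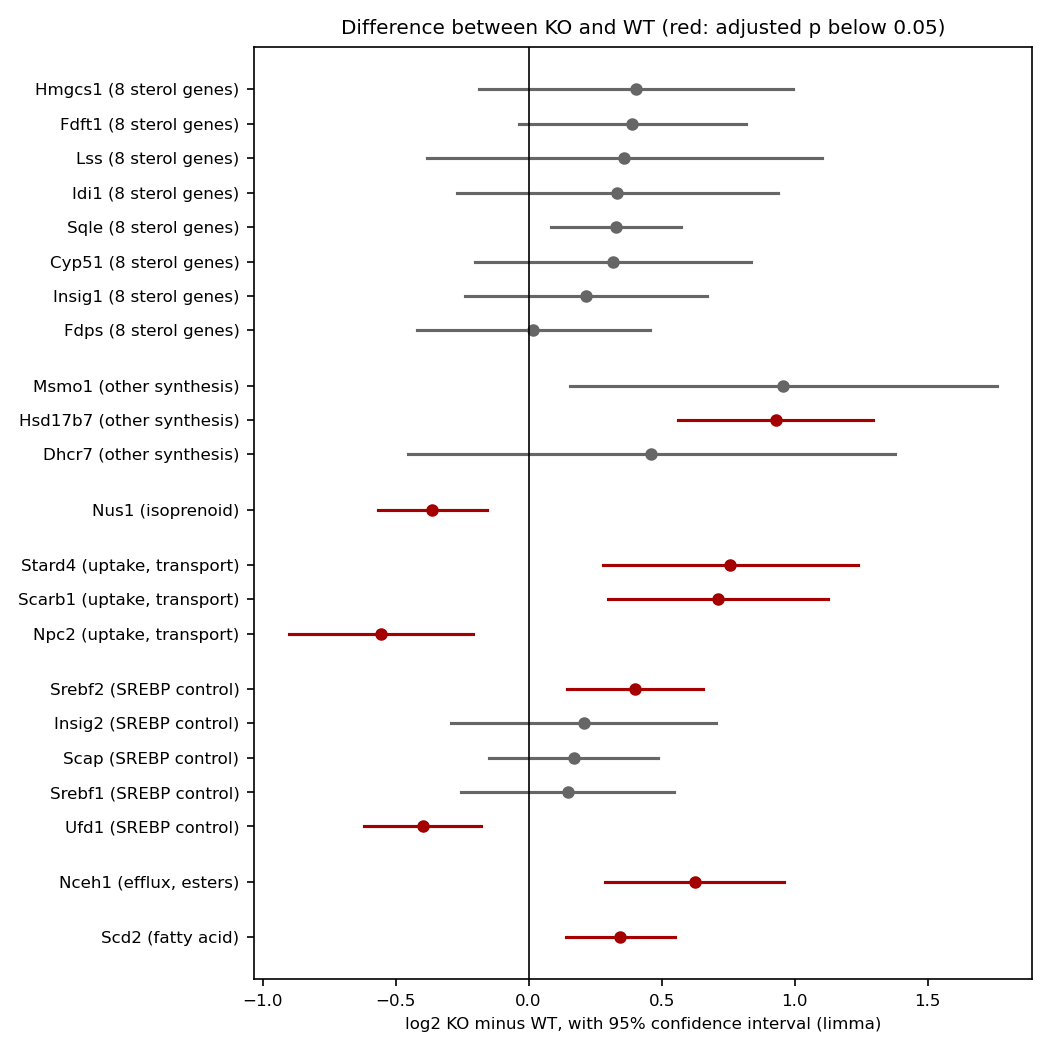
Log2 difference KO minus WT (horizontal axis) with its 95% confidence interval from limma, by list. Shown are the 8 sterol genes, the called genes of the lists and the fixed set of pathway genes. Red marks an adjusted p below 0.05. The intervals of 7 of the 8 sterol genes include 0, and Msmo1 has the highest value at 0.96.

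Outside these lists, the 5 genes whose log2 level over the 6 libraries followed the mean of the 8 most closely, of 10870 ranked, were St3gal5 (Pearson's r = 0.99), Smg1 (0.98), Lrp11 (0.98), Gas2l3 (0.98) and Steap2 (0.98). St3gal5, a sialyltransferase of ganglioside synthesis, stood at 132 and 173 units in WT and at 154, 176, 170 and 252 units in KO. Gas2l3, a cytoskeletal linker, stood at 410 and 611 units in WT and at 599, 656, 619 and 922 units in KO. None of the 5 passed the test (adjusted p 0.199 to 0.445). St3gal5 lies on chromosome 6, whose genes were high in line 4. With 6 libraries and this many genes, close likeness is a ranking and carries no test.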

How the data were processed

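RNA-seq of 6 libraries was used as deposited, in 1 table. Per the submitters' processing notes, Bowtie2 2.2.0, RSEM 1.2.17 and mm10 were used. What each did, the annotation and the normalization are not stated there. The authors named the unit CPM, but the deposited values are whole numbers that sum to 14612799 to 14722877 per library, with the same maximum (78894) in each library and the same median (548) in 5 of the 6. They were treated as a normalized score in which depth, counting error and changes in total RNA are not visible.

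Scores were divided by 14.7, a constant set from the mean library total, a pseudocount of 1 was added and log2 taken, which understates differences of low genes. Genes needed a scaled value of 1 in 2 libraries, which removed 0. KO and WT were compared with limma 3.58.1 (R 4.3.3; lmFit, eBayes with trend, two-sided, 4 residual degrees of freedom, no covariate), adjusted by Benjamini-Hochberg over all 10989 genes and called at 0.05. All adjusted p-values come from limma, which was tested on simulated data. That simulation drew each gene and library independently, so it held no shift of a whole library, chromosome or clone and cannot speak to such shifts here. The choice of limma had been fixed for a CPM-like scale, and the unit turned out to be a score. Genes were placed with GENCODE M21 (mm10), which gave a position for 10941. A few listed genes are not reported here. Of the 75 other pathway genes, 70 were measured, with Erg28 and Ufd1 matched by identifier. Named genes are the 8 members, Ddx5, called genes of the lists, a fixed set of pathway genes (Dhcr7, Msmo1, Srebf2, Srebf1, Scap and Insig2, of which Srebf2 was also called) and the 5 most alike. Pou5f1, Nanog, Klf4, Fn1, Pdgfrb and Thy1 are named as cell type markers, and Lrp8 and Vldlr were chosen after their values were seen. The members and lists were chosen with earlier results of these data known. Alternatives were pseudocount, scaling, filter, variance trend, chromosome medians, replicate block and leaving out each library.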

Additional observations from a re-analysis of the deposited data

Results flagged for a closer look

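Among the 22 pathway genes named in the text, the highest and the lowest of the 4 KO lines were each compared with the nearest neighbour by Dixon's ratio, the gap divided by the range of the 4 lines. The ratio exceeded Dixon's 95% critical value for 4 genes, always in KO line 4. It was 0.874 for Hmgcs1, 0.847 for Insig1, 0.843 for Scarb1 and 0.829 for Lss, the last just past the critical value. Chance gives such a ratio in about 1 of 20 groups, and the genes share libraries. Srebf2 (0.809, KO line 4 highest), Insig2 (0.742, KO line 1 lowest) and Idi1 (0.739, KO line 4 highest) came next among the 22 and did not exceed it. Lrp8 and Vldlr, described below, were not among the 22 and their ratios were not computed. Lrp8 stood at 176 units in KO line 4 and at 39 to 51 units in lines 1 to 3.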

How the results depend on the processing

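The 8 sterol genes had no call under any of the 15 alternatives run. Some of these could change little. The filter removed 0 genes, so the fit without it repeats the main fit, and a stricter filter left the 8 differences unchanged. Quantile normalization moved their median from 0.332 to 0.328. Sign changes among them were those of Fdps and Lss. Fdps was -0.023 with median centring and -0.081 with the replicate block, and lay between -0.19 and 0.23 with a library left out. Lss then lay between -0.068 and 0.79. With a library left out the other members lay at 0.20 to 0.61 (Hmgcs1), 0.29 to 0.38 (Sqle), 0.02 to 0.65 (Idi1), 0.16 to 0.62 (Fdft1), 0.15 to 0.41 (Cyp51) and 0.02 to 0.41 (Insig1). Over all genes, calls numbered 1878 (1071 higher, 807 lower). They ranged from 472 (without KO line 2) to 3304 (without WT replicate 1), with 237 to 2004 higher and 235 to 1300 lower. The other pathway genes, 6 higher and 3 lower with all libraries, ranged from 0 to 11 higher and from 0 to 4 lower. Median centring gave 3 higher, and a fit without the variance trend 2 higher and 1 lower. Among the called genes and the fixed set of pathway genes, Srebf1 turned negative in 2 fits (-0.042 without WT replicate 1, -0.0036 with the replicate block). Insig2 did so in 1 (-0.10 without WT replicate 2). With a library left out they ranged from -0.042 to 0.33 and from -0.10 to 0.52. The causes were not tested.

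With the replicate number as a block, which leaves KO lines 3 and 4 without a partner, calls over all genes fell to 20 (2 higher, 18 lower), and 0 of the other pathway genes were called higher and 0 lower. Same-numbered libraries correlated in their deviations at 0.14 and 0.10, and WT replicate 2 also correlated at 0.10 with KO line 3. With 2 WT libraries their deviations mirror each other, so these values do not show a pairing. The labels do not say that the numbers pair samples, so this fit is not read as a smaller effect. In 6 of the 8 genes the 2 WT libraries differed by more than the genotypes did.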

Other observations

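Among lipoprotein receptors of low expression, Lrp8 and Vldlr, chosen after their values were seen, were also highest in KO line 4. Of the 13 measured uptake and transport genes, 6 were highest there, these included, and the list's median step in line 4 was 0.11 (log2). Lrp8, a receptor for reelin and apolipoprotein E, stood at 82 and 52 units in WT, at 39, 51 and 40 units in KO lines 1 to 3 and at 176 units in line 4. Vldlr, the very-low-density lipoprotein receptor, stood at 100 and 63 units in WT, at 52, 118 and 70 units in KO lines 1 to 3 and at 170 units in line 4. The KO lines of Vldlr were widely spread, and those of Lrp8 were close apart from line 4. Neither passed the test between KO and WT (adjusted p = 0.966 and 0.772, limma).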
